A study of Mus musculus with 6 samples.

Results

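The Snail, Twist and ZEB factors are 6 transcription factors of epithelial-mesenchymal transition, the change in which epithelial cells give up their junctions and take on the features of migrating mesenchymal cells. They were taken from the table by gene symbol: Snai1 (ENSMUSG00000042821), Snai2 (ENSMUSG00000022676), Twist1 (ENSMUSG00000035799), Twist2 (ENSMUSG00000007805), Zeb1 (ENSMUSG00000024238) and Zeb2 (ENSMUSG00000026872). All 6 were among the 22032 genes listed, and all 6 lay above the minimum level for testing. The RNA-seq libraries are from the mouse line mDE6, in which a short hairpin RNA was expressed: 3 libraries had a control hairpin (shControl) and 3 had one directed at Arl4c (shArl4c), whose product is an ARF-like small GTPase. The sources used here give no allele, agent, time point or tissue of origin, and only 1 Arl4c hairpin group, so loss of Arl4c RNA and side effects of that hairpin cannot be told apart. Separate cultures are not stated, and p-values therefore cover only the spread among these libraries, which could be technical.

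Snail proteins (Snai1, and Snai2, also called Slug) are zinc-finger repressors that bind the E-box CACCTG and recruit histone-modifying corepressors through a short domain at their start. ZEB proteins read the same E-boxes with zinc-finger clusters at each end and bind CtBP corepressors and SMAD proteins. Twist proteins are basic helix-loop-helix (bHLH) factors that bind the wider class of E-boxes CANNTG, usually as dimers with the E proteins Tcf3, Tcf4 and Tcf12, and ID proteins compete for those partners. In mesenchyme, including that of the face and skull, the same factors are present outside any transition: Twist1 and Twist2 hold back osteoblast differentiation, and Snai2 and Zeb2 act in neural crest cells.

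Sequences upstream of the genes are given first, since the E-box is the letter code through which the factors act. They are RefSeq sequences of the mouse build GRCm38.p6, an older build than the GRCm39 used for the deposited table, and cover the 250 bases before the annotated start, 5′ to 3′, with each CANNTG in capitals. Windows for 4 of the 6 factors were matched. Snai1 is shown for its own CACCTG, Twist1 and Twist2 as paralogs whose RNA moved differently, and Cldn7, Rab25 and Gjb2 as genes of epithelial junctions or polarised epithelium that carry the box.

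Snai1, chr2:167537945-167538194, plus strand: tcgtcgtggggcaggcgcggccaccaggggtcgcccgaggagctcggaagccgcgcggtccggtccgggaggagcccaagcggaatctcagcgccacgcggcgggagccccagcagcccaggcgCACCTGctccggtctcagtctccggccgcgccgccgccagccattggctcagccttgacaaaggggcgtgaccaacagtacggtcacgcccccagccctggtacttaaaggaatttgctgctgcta
Twist1, chr12:33957421-33957670, plus strand: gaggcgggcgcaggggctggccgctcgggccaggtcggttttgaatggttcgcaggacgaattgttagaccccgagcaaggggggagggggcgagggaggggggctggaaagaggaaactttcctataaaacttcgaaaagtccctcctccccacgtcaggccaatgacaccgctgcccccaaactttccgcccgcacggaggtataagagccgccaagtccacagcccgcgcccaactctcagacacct
Twist2, chr1:91801211-91801460, plus strand: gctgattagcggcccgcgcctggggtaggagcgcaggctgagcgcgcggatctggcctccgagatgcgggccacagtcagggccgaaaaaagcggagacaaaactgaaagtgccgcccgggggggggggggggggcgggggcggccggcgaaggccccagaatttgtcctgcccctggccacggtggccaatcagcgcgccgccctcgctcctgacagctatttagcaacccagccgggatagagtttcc
Cldn7, chr11:69965171-69965420, plus strand: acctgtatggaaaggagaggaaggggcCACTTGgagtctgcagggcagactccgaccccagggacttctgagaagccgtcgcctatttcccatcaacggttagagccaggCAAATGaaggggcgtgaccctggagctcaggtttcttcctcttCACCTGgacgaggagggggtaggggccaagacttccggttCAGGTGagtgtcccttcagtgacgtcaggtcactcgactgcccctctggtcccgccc
Rab25, chr3:88548280-88548529, minus strand: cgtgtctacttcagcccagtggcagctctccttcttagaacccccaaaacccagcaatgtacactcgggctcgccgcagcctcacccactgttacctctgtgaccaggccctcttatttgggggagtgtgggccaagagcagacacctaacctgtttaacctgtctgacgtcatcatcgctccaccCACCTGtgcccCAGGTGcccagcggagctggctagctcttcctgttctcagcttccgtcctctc
Gjb2, chr14:57104703-57104952, minus strand: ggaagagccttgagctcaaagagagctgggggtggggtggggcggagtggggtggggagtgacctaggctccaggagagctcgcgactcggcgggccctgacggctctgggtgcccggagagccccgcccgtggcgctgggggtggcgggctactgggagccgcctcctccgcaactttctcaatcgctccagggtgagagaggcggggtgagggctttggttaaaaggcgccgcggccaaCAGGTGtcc

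The Snai1 window held 1 E-box, a CACCTG starting at position -126 from the gene's start. No CANNTG was found in the Twist1 and Twist2 windows, nor in the 4 windows of Zeb2. CANNTG (which reads the same on both strands, and includes CACCTG) was present in 66.2% of 32851 RefSeq windows of 250 bases, and CACCTG on either strand in 17.2%. Cldn7 and Rab25 each held 2 CACCTG boxes, at positions -97 and -57 and at -64 and -53, and Gjb2 held 1 at position -9. A match is a description of letters and not a measured binding site.

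Depth was 12316770 to 14976113 reads per library, and libraries carry the numbers of the deposited table. Its unit is CPM, here reads scaled by library size and by a TMM normalisation factor per library (0.981 to 1.031). Levels are means ± SD with n = 3 per group, and where a pair of levels is given the shControl level comes first. A log2 fold change compares CPM + 1 in shArl4c with shControl, which understates changes of low genes; limma tested 14740 genes whose mean reached 1 CPM, and those with a Benjamini-Hochberg adjusted p under 0.05 were called. The targeted gene, Arl4c, fell 2.94-fold, from 20.6 ± 0.480 to 7.02 ± 0.353 CPM. Counts of shArl4c 3 differed from shArl4c 4 and shArl4c 2 by 4.87 and 5.74 (chi-square over degrees of freedom), and those of shArl4c 2 and 4 from each other by 1.54. The line showed little RNA of epithelial markers (Cdh1, Krt5, Krt8, Krt14, Krt18 and Krt19 summed to 1.18 to 1.74 CPM in shControl and 1.68 to 3.41 in shArl4c). Mesenchymal markers (Vim, Col1a1, Col1a2, Pdgfra and Thy1) summed to 29070.3 to 30493 and 17580.4 to 18435 CPM. Most of this sum is collagen: Col1a1 had means of 17787 and 10139 CPM and Col1a2 of 9443 and 5240 CPM, whereas Vim did not pass and Pdgfra rose from 138 ± 0.168 to 234 ± 2.47 CPM. Quantile normalisation gives every library the same set of values. With it Col1a1 no longer passed (limma adjusted p = 0.510), while Col1a2 still did (log2 fold change -0.71, limma adjusted p = 2.72e-12). Under all other settings used Col1a1 passed. Its highest adjusted p among them was 7.02e-05, in limma without trend and robust moderation (log2 fold change -0.81). Of 16 listed markers of leukocytes, endothelium, glia and muscle, 12 were found in the table. They summed to 9.41 to 9.96 CPM in shControl and 13.4 to 13.6 CPM in shArl4c, and 4 had at most 3 reads in any library. Every gene in the table had at least 6 reads in total, so none could be at 0 in every library. Cd68, a macrophage marker, was the only 1 of 4 tested that rose (2.79 ± 0.397 to 5.77 ± 0.207 CPM), where 18.9% of all tested genes rose. The median log2 fold change of the 4 was 0.09. The part of these cells in the results was not tested. In such bulk RNA, fewer cells of a type and less RNA per cell cannot be told apart.

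The 6 factors did not move as a group. Twist2 and Snai1 rose, Snai2, Zeb2 and Zeb1 fell, and Twist1 did not pass the test. The changes of Twist2 (2.28-fold) and Snai2 (1.65-fold) were the largest of the 6, and those of the others were between 1.06-fold and 1.17-fold. Of all tested genes, 36.9% were called in either direction, 18.9% higher and 18.0% lower in shArl4c, and against this background 5 of 6 factors called, 2 higher and 3 lower, is a count over few genes. The groups did not overlap for 5 of the 6, where they did not overlap for 46.8% of all tested genes. The median log2 fold change of the 6 was -0.04 and that of all tested genes 0.01. Without shArl4c 3, Twist1 also passed, so that 3 rose and 3 fell, and without shControl 3 Snai1 and Zeb1 no longer passed. The calls over all genes moved the same way. With all libraries 2790 genes were higher and 2655 lower of 14740 tested. These were 3488 and 3137 of 14685 without shArl4c 3, and 2380 and 2131 of 14746 without shControl 3.

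**Figure D1:**
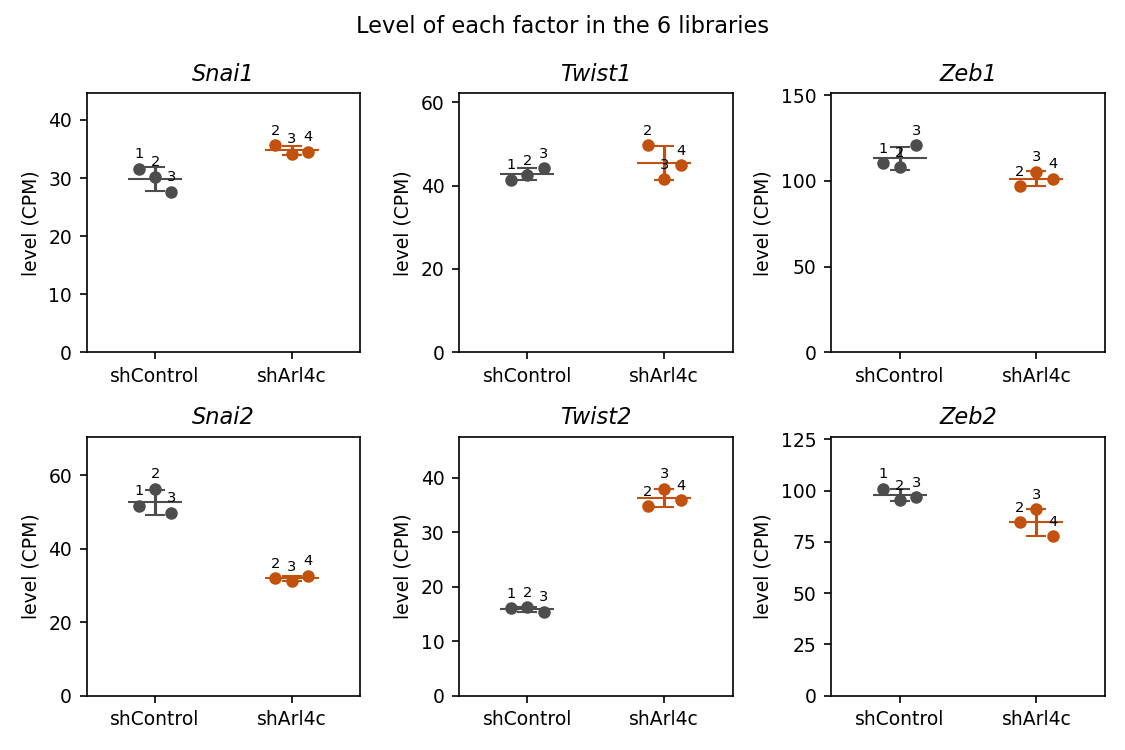
Level of each factor in CPM in every library (points, numbered as in the deposited table), with the mean (long bar) and SD (whiskers) of the 3 libraries per group; every vertical axis starts at 0. Twist2 spans 15.4 to 16.2 CPM in control libraries against 34.8 to 38.0 CPM in shArl4c, whereas the Twist1 points of the groups overlap.

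Twist2, also known as Dermo1, is a bHLH repressor of dermal and bone-forming mesenchyme. It read 16.0, 16.2 and 15.4 CPM in the control libraries 1, 2 and 3 against 34.8, 38.0 and 35.9 CPM in shArl4c 2, 3 and 4. Every shArl4c library was above every shControl library, and the gap between the groups was several times the spread within either. The means were 15.9 ± 0.427 and 36.2 ± 1.64 CPM, a log2 fold change of 1.14 with SE 0.07 (adjusted p = 1.24e-10 by limma). Of the tested genes, 0.916% had a larger log2 fold change. These CPM values rested on 186 to 241 reads of Twist2 per library in shControl and on 469 to 507 in shArl4c. Genes annotated across Twist2 had few reads: Gm29100, on the opposite strand, had means of 1.97 and 2.51 CPM in shControl and shArl4c, and Gm29101, on the same strand, 1.501 and 2.65 CPM. Neither passed the test.

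Twist1, its paralog, which is required in cranial mesenchyme, read 41.5, 42.5 and 44.3 CPM in the control libraries against 49.7, 41.6 and 44.9 CPM in shArl4c 2, 3 and 4. The ranges overlapped: shArl4c 3 was level with the lowest shControl library and shArl4c 2 was above all others. The log2 fold change was 0.08 with SE 0.06 (adjusted p = 0.359 by limma), from 42.7 ± 1.41 to 45.4 ± 4.09 CPM. Leaving out shArl4c 3 gave a log2 fold change of 0.14 (limma adjusted p = 0.0460).

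Snai2, the Slug protein of neural crest and mesenchyme, read 51.7, 56.3 and 49.8 CPM in the control libraries against 31.9, 31.1 and 32.6 CPM in shArl4c. All 3 shArl4c libraries were lower than any shControl library, and they lay close together. Snai2 fell 1.65-fold, 52.6 ± 3.33 against 31.9 ± 0.749 CPM (log2 fold change -0.70 with SE 0.06, adjusted p = 1.91e-08 by limma), and 4.28% of tested genes had a smaller log2 fold change. Snai1, the founding vertebrate Snail factor, read 31.6, 30.2 and 27.6 CPM in the control libraries against 35.6, 34.2 and 34.5 CPM in shArl4c. The groups did not overlap, but the step was small beside that of Snai2: Snai1 rose 1.17-fold, 29.8 ± 2.01 against 34.8 ± 0.769 CPM (log2 fold change 0.22 with SE 0.07, adjusted p = 0.0132 by limma). This call was lost without shControl 3 (limma adjusted p = 0.0824) and in DESeq2 on the recovered reads (adjusted p = 0.0933). The third mammalian Snail gene, Snai3, named after its values were seen, was near the detection floor (0.0970 ± 0.0328 CPM, against 0.225 ± 0.0805 CPM with the Arl4c hairpin) and was not tested.

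Zeb2, which binds SMAD proteins and is mutated in Mowat-Wilson syndrome, read 101, 95.4 and 96.6 CPM in the control libraries against 84.6, 91.0 and 77.8 CPM in shArl4c. The highest shArl4c library lay close below the lowest shControl library. Zeb2 fell 1.16-fold, 97.6 ± 2.91 against 84.5 ± 6.58 CPM (log2 fold change -0.21 with SE 0.05, adjusted p = 0.00475 by limma). Zeb1, a repressor of E-cadherin and of the miR-200 genes, read 110.4, 108 and 121 CPM in the control libraries against 97.0, 106 and 101 CPM in shArl4c. The groups did not overlap, but shControl 2 lay close above shArl4c 3. Zeb1 fell 1.12-fold, 113 ± 6.79 against 101 ± 4.27 CPM (log2 fold change -0.16 with SE 0.05, adjusted p = 0.0188 by limma). The Zeb1 call was lost without shControl 3 (adjusted p = 0.138), shArl4c 2 (0.0895) or shArl4c 4 (0.0523), and both ZEB calls were lost in limma without intensity trend and robust moderation (adjusted p = 0.113 for Zeb1 and 0.0647 for Zeb2). The antisense gene Zeb2os had 1.70 ± 0.189 and 1.497 ± 0.320 CPM, and Gm10125, opposite Zeb1, had 22.7 ± 0.621 and 21.8 ± 3.23 CPM. The sources used here do not say if counting used strand, so Zeb1 and Gm10125 may share reads.

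Within each pair of paralogs the balance was then measured as a log2 ratio per library, on CPM + 1. Twist2 to Twist1 was -1.32, -1.34 and -1.47 in shControl and -0.50, -0.13 and -0.32 in shArl4c, a difference of 1.06. Twist2 reads made up 27.1 ± 1.12% of all Twist reads in shControl and 44.4 ± 3.29% in shArl4c. Snai2 to Snai1 was 0.69, 0.88 and 0.83 in shControl and -0.15, -0.13 and -0.08 in shArl4c, a difference of -0.92. Snai2 thus gave more reads than Snai1 in every shControl library and fewer in every shArl4c library, with 63.8 ± 1.57% and 47.8 ± 0.675% of Snail reads. Both ratios separated the groups completely, which gives an exact two-sided permutation p = 0.1, the smallest that 3 against 3 libraries allow (0.15 adjusted over 3 ratios). Zeb2 to Zeb1 was -0.13, -0.18 and -0.32 in shControl and -0.19, -0.21 and -0.38 in shArl4c, and differed by -0.05, with overlapping groups (exact permutation p = 0.5, adjusted 0.5). The summed level of the pair was 58.6 ± 1.08 and 81.6 ± 2.55 CPM for Twist, 82.4 ± 4.58 and 66.7 ± 1.22 CPM for Snail and 211 ± 7.001 and 186 ± 9.40 CPM for ZEB in shControl and shArl4c.

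**Figure D2:**
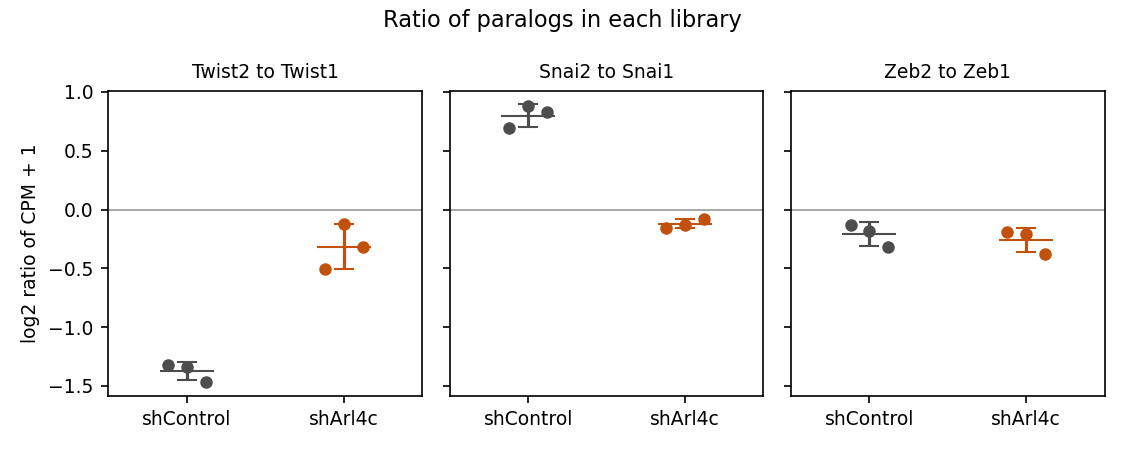
Log2 ratio of paralogs (CPM + 1) in each library as points, with the mean (long bar) and SD (whiskers) of 3 libraries per group, on one vertical axis. Twist2 to Twist1 goes from a mean of -1.37 to -0.32 and Snai2 to Snai1 from 0.80 to -0.12, while the Zeb2 to Zeb1 points overlap.

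Levels between genes can be compared only per length of transcript. On CPM per kilobase of the longest protein-coding transcript in GENCODE M21, the order in shControl was Twist1 (26.3 ± 0.865), Snai2 (26.02 ± 1.65), Zeb1 (19.5 ± 1.17), Snai1 (18.4 ± 1.24), Zeb2 (10.7 ± 0.318) and Twist2 (6.29 ± 0.169). Twist1 and Snai2 overlapped over their libraries, as did Zeb1 and Snai1, and the other neighbours did not. In shArl4c on the same scale, Twist1 was at 27.9 ± 2.51, Snai1 at 21.5 ± 0.474, Zeb1 at 17.5 ± 0.736, Snai2 at 15.8 ± 0.371, Twist2 at 14.3 ± 0.649 and Zeb2 at 9.26 ± 0.722, and no neighbours in this order overlapped. On this length, Snai2 went from rank 2 to rank 4 and Twist2 from rank 6 to rank 5, above Zeb2. The order depends on the length used. With the mean over protein-coding transcripts (2.49 kb for Zeb1 and 2.51 kb for Zeb2, against 5.80 and 9.12 kb for the longest), Zeb1 and Zeb2 were at ranks 1 and 2 in both groups. Snai2 then went from rank 4 to rank 6, and Twist2 from rank 6 to rank 5, above Snai2 (18.8 ± 0.850 against 15.8 ± 0.371 CPM per kilobase in shArl4c) and below Zeb2 (33.7 ± 2.63).

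Of the genes whose products pair with Twist or compete for its partners, the E protein gene Tcf4 fell and the ID genes went different ways. Tcf4 fell 1.68-fold, 273 ± 5.39 against 163 ± 7.49 CPM (log2 fold change -0.74 with SE 0.04, adjusted p = 6.64e-11 by limma), while Tcf3 (147 ± 4.67 and 154 ± 4.86 CPM) and Tcf12 (142 ± 2.82 and 145 ± 4.69 CPM) did not pass. Id1, an inhibitor of bHLH dimers and a target of BMP signalling, rose 1.83-fold, 16.8 ± 1.09 against 30.6 ± 1.72 CPM (adjusted p = 3.56e-08), and Id2 rose 1.248-fold from 24.9 ± 0.680 to 31.1 ± 3.39 CPM. Id4 fell 1.44-fold, from 13.8 ± 0.196 to 9.56 ± 0.343 CPM, and Id3, at 103 ± 0.901 and 93.0 ± 11.98 CPM, did not pass. In all, 2 of the 7 tested genes of this list of 9 rose and 2 fell, beside 18.9% and 18.0% of all tested genes. The median log2 fold change of the 7 was 0.02. The other listed partners, Hand1 and Hand2, were not found in the table by symbol and so were not analysed here.

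Other factors that promote the transition moved in both directions. Of 10 tested genes, 4 rose and 4 fell (median log2 fold change -0.0022), beside 18.9% and 18.0% of all tested genes. Without shControl 1, only 2 rose. Hmga2, a chromatin protein that induces Snail and Twist genes downstream of TGF-beta, rose 2.21-fold, 64.3 ± 3.19 against 142 ± 2.59 CPM (log2 fold change 1.13 with SE 0.05, adjusted p = 4.8e-13 by limma). Prrx1, a homeobox factor of limb and face mesenchyme, fell 1.94-fold from 1132 ± 20.4 to 585 ± 16.1 CPM, and Tbx3, a T-box repressor, fell 1.35-fold (24.98 ± 0.546 against 18.5 ± 0.766 CPM).

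**Figure D3:**
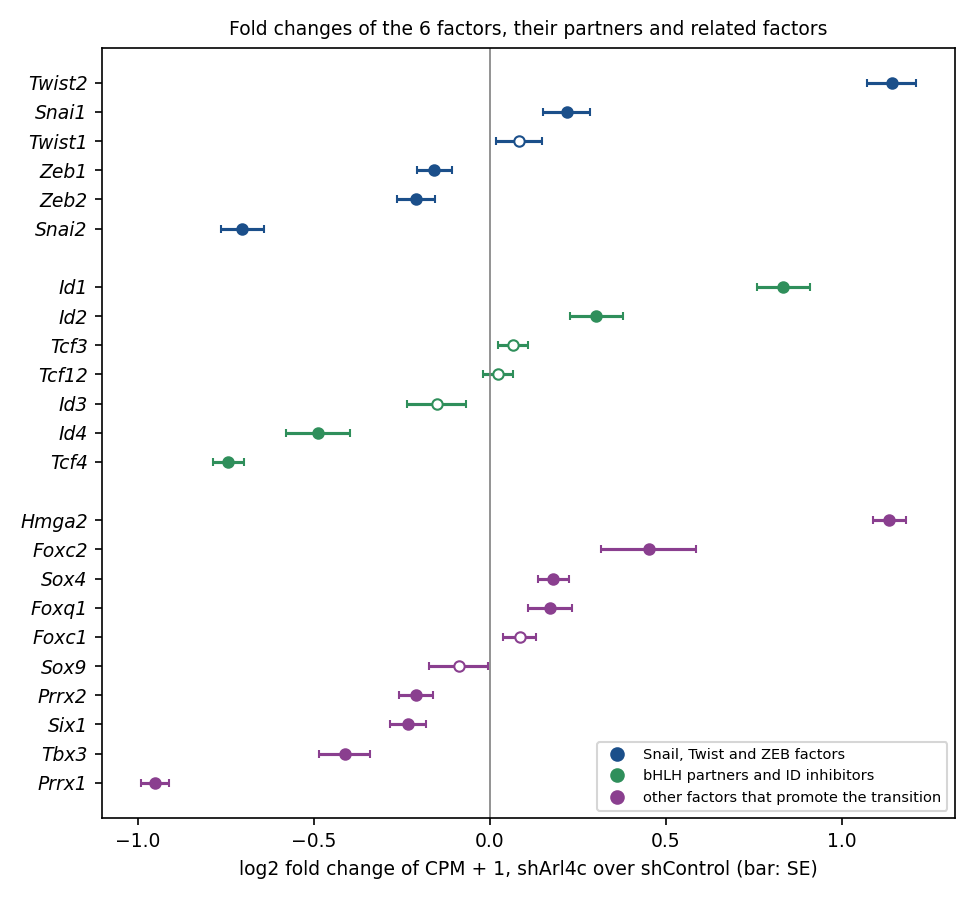
Log2 fold change of CPM + 1 (shArl4c over shControl, whiskers are SE) of the 6 factors, of bHLH partners and ID inhibitors, and of other factors that promote the transition; filled points passed limma's test at an adjusted p under 0.05 and open points did not. Each of the 3 groups has genes on both sides of 0, from -0.70 for Snai2 to 1.14 for Twist2 among the 6.

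Of factors that keep cells epithelial, 6 were high enough to test. By limma 3 rose, where 18.9% of all tested genes rose, and the other 3 (Grhl1, Esrp2 and Trp63, named after their values were seen) did not pass. The median log2 fold change of the 6 was 0.22, and Grhl1 fell when shArl4c 3 was left out (log2 fold change -0.60, limma adjusted p = 0.00791). Foxa1, a pioneer factor of endodermal and glandular epithelium, rose 2.69-fold, 4.601 ± 0.851 against 12.4 ± 0.478 CPM (limma adjusted p = 1.08e-07), the Krüppel-like factor Klf5 1.26-fold to 46.4 ± 4.65 CPM, and Klf4 1.14-fold, 41.0 ± 1.44 against 46.6 ± 1.69 CPM (adjusted p = 0.0175, lost with DESeq2 and without shControl 1, shControl 2 or shArl4c 2). Grhl2 and Ovol1, which repress ZEB genes in epithelia, were below the minimum level, as were Ehf, Foxa2 and Gata3; these 5 were also named after their values were seen.

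The corepressors and cofactors through which the 6 factors act were tested in 29 cases. Of these, 8 rose and 5 fell (median log2 fold change -0.01), where 18.9% of all tested genes rose and 18.0% fell. Yap1, a coactivator that binds Zeb1, rose 1.95-fold, 1957 ± 61.7 against 3822 ± 43.5 CPM (log2 fold change 0.97, limma adjusted p = 2.86e-13). Loxl2, a lysyl oxidase that also binds Snai1, fell 2.84-fold from 7.42 ± 1.42 to 2.61 ± 0.465 CPM, and the histone methyltransferase gene Suv39h1 rose 1.29-fold to 73.8 ± 2.68 CPM. Among genes chosen after their values were seen, the ZEB corepressors Ctbp1 and Ctbp2 had log2 fold changes of -0.01 and 0.0005 and did not pass, whereas Hdac1 (-0.15, limma adjusted p = 0.0289), Hdac2 (-0.16, 0.00564) and the demethylase gene Kdm1a (-0.15, 0.0281), whose products are recruited by Snail, passed. These small differences depended on the setting: without trend and robust moderation none of the 3 passed, and Hdac1 and Kdm1a also did not pass with DESeq2 or without any 1 of the shControl libraries or shArl4c 3. Other genes of this list, also chosen after their values were seen, rose by similar amounts. Among the 8 that rose were Suz12 (0.18, limma adjusted p = 0.00324), Ehmt2 (0.17, 0.00524) and Rbbp7 (0.23, 0.000266). Of all 29, 4 rose and 1 fell (Loxl2) without trend and robust moderation, and 2 fell (Loxl2 and Hdac2) with DESeq2. Without shControl 1 or shControl 2, 5 rose and 2 fell, and without shControl 3, 3 fell.

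Snail and Twist proteins are also controlled by phosphorylation and breakdown, which RNA does not show. Of 22 tested genes of that machinery, 1 rose and 4 fell (median log2 fold change 0.03), beside 36.9% of all tested genes called. Without shArl4c 3, 5 rose, and without shControl 1, shControl 3 or shArl4c 4, 2 fell. Prkd1, a kinase that phosphorylates Snai1, fell 3.85-fold, 18.7 ± 1.64 against 4.85 ± 0.536 CPM (limma adjusted p = 1.62e-10). Gsk3b, the kinase that marks Snai1 for breakdown, fell 1.28-fold from 222 ± 8.86 to 173 ± 1.95 CPM, and Cops2, a COP9 signalosome subunit that stabilises Snai1, rose 1.29-fold to 261 ± 8.16 CPM.

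Signals that induce the factors moved in both directions. Of 27 tested, 10 rose and 7 fell, beside 18.9% and 18.0% of all tested genes, and the median log2 fold change was 0.09. Fgfr2, an FGF receptor, fell 4.15-fold, 83.7 ± 0.426 against 20.2 ± 1.58 CPM (limma adjusted p = 6.4e-15), the ligand gene Tgfb3 1.79-fold from 116 ± 5.23 to 64.7 ± 3.76 CPM, and Jag1, a Notch ligand, 2.31-fold from 32.3 ± 2.79 to 14.0 ± 0.342 CPM. Hgf and Bmp7, chosen after their values were seen, rose from 0.861 ± 0.177 to 4.56 ± 0.418 CPM and from 1.31 ± 0.0846 to 5.71 ± 0.931 CPM.

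Genes of epithelial junctions and keratins, many of them repressed by Snail and ZEB factors, were mostly too low to test. Of the 27 in the table, 18 were below the minimum level, and of the 9 tested 2 rose and 3 fell, with a median log2 fold change of 0.02. Among all tested genes, 18.9% rose and 18.0% fell. Cdh1, encoding E-cadherin, the classic target of all these repressors, had 0.321 ± 0.0223 CPM in shControl and 0 reads in each library of shArl4c, where a count of 0 leaves room for at most 0.218 to 0.230 CPM. Tjp1, encoding the junction scaffold ZO-1, rose 1.19-fold from 159 ± 0.598 to 188 ± 5.14 CPM. Pkp2, a desmosomal plakophilin gene, fell 1.34-fold from 41.9 ± 0.936 to 31.1 ± 3.31 CPM, and Gjb2, encoding connexin 26, fell from 5.06 ± 0.349 to 0.399 ± 0.0525 CPM (limma adjusted p = 2.09e-09). The number that rose was 1 with the stricter filter, with DESeq2, and without shControl 1, 2 or 3 or shArl4c 2.

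Promoter windows of this list were read for the CACCTG box. Of 22 genes with a window, 14 held at least 1 CACCTG, where 19.4% of 27025 genes did so. No mesenchymal gene of 16 with a window held one, and 4 of 9 factors that keep cells epithelial did. The junction and keratin list holds many genes repressed by Snail and ZEB factors, so these shares are not independent of how the lists were chosen. Of the 18 junction and keratin genes that were also in the table, 10 held the box and 8 did not. Among the 10, 4 were high enough to test and 1 of these fell (Gjb2), and among the 8, 3 were tested, of which 1 fell (Cldn1, limma adjusted p = 0.0471) and 1 rose (Tjp1). The Cldn1 call was lost under 9 of 17 alternatives, among them each shControl library left out. Cldn7, with the boxes shown above, stood at 0.201 ± 0.0595 and 0.1999 ± 0.0474 CPM, and Rab25, a small GTPase gene of polarised epithelium, at 0.351 ± 0.138 and 0.0497 ± 0.0431 CPM. Both were below the level tested, and base composition was not compared between the lists.

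Genes that mark the mesenchymal state mostly fell. Of 27 tested, 20 fell and 5 rose, beside 18.0% and 18.9% of all tested genes, and the median log2 fold change was -0.45. Vim, the intermediate filament gene most used as a readout of the transition, did not pass, at 2543 ± 51.6 and 2444 ± 164 CPM (log2 fold change -0.06, limma adjusted p = 0.351). Cdh2, encoding N-cadherin, fell 1.35-fold from 98.7 ± 1.74 to 73.0 ± 1.49 CPM, and Fn1, the fibronectin gene, had a log2 fold change of -0.67 (SE 0.04), which was -0.43 (SE 0.10, limma adjusted p = 0.0333) with quantile normalisation. The falls with the smallest p were those of the matrix genes Postn (log2 fold change -3.98) and Tnc (-3.39) and of the smooth muscle actin gene Acta2 (-2.50). The 5 that rose, named here after their values were seen, were Mmp3 (1.51), S100a4 (1.15), Pdgfra (0.76), Pdgfrb (0.16) and Lox (0.16). The log2 fold changes of the Twist, Snail and ZEB genes ran from -0.70 to 1.14. They were smaller in size than those of Postn, Tnc and Acta2, which were picked from the 27 by their p. That of Twist2 (1.14) was larger in size than that of Fn1 and than the median of the mesenchymal list.

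**Figure D4:**
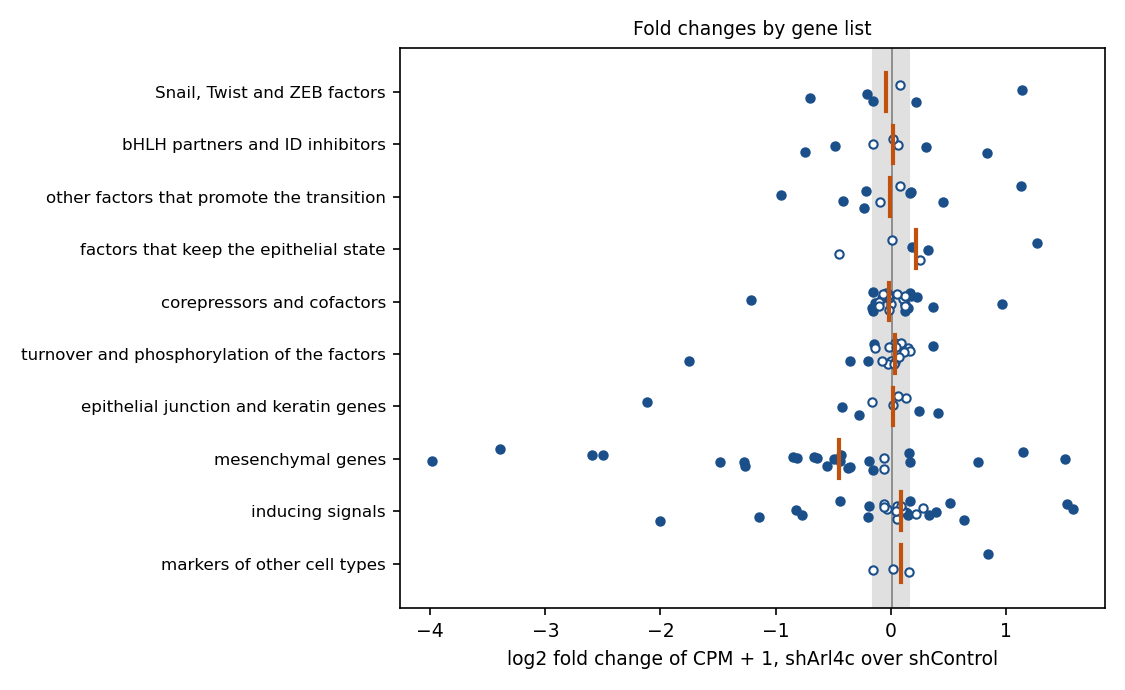
Log2 fold change of CPM + 1 of every tested gene by list (points, filled where limma's adjusted p was under 0.05; vertical scatter is random), with the list median (orange bar), the median of all tested genes (grey line) and their middle 50% (grey band). The medians of the 6 factors (-0.04) and of their cofactors (-0.01) lie inside the band, that of the mesenchymal genes (-0.45) lies below it and that of the factors that keep the epithelial state (0.22) above it.

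The pattern of each factor was set against 10346 candidate genes by the distance between log2 profiles over the 6 libraries, each centred on its own mean, as a description. Nearest to Twist2 were Errfi1, a feedback inhibitor of the EGF receptor (65.2 ± 0.137 and 147 ± 5.10 CPM, distance 0.0936), Birc2, an inhibitor of apoptosis (270.3 ± 5.06 and 572 ± 12.5 CPM, distance 0.115), and Gclc, an enzyme of glutathione synthesis (48.0 ± 0.805 and 102 ± 3.11 CPM, distance 0.141). Nearest to Snai2 were Adgrl1 (distance 0.103), Nuak1 (0.119) and Il1rn (0.126). For Snai1 they were Dbi, Cycs and Tmed5 (0.0368 to 0.0564), for Twist1 G6pc3, Nedd1 and Cript (0.0366 to 0.0490), for Zeb1 Nae1, Ppp2r3a and Ubr2 (0.0365 to 0.0606) and for Zeb2 Sorl1, Arl5b and Ifnar1 (0.0602 to 0.0633). Genes at small distances are many where a factor changed little, since the profile is then mostly flat.

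**Figure D5:**
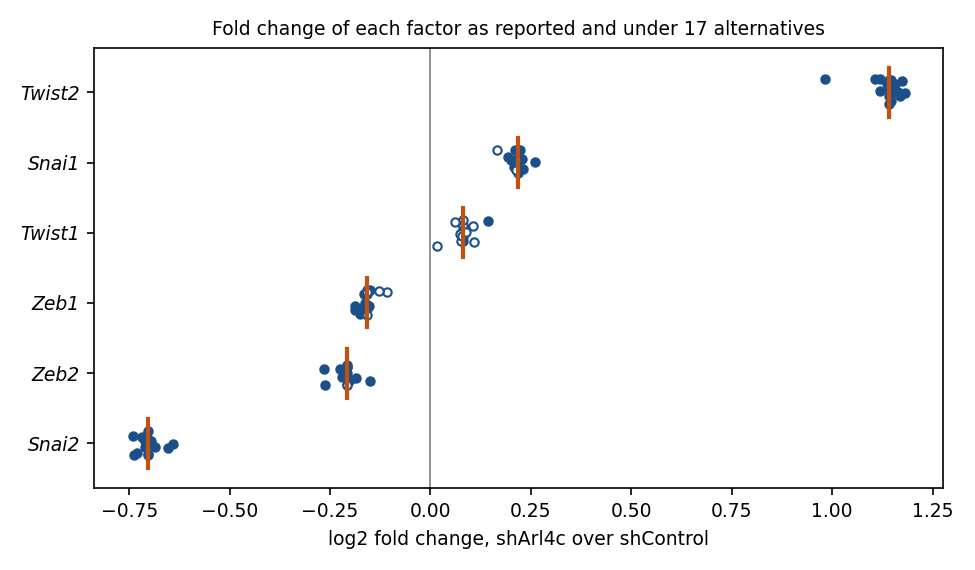
Log2 fold change of each factor (shArl4c over shControl) as reported (orange bar) and under 17 alternative settings (points; filled where the adjusted p was under 0.05, vertical scatter is random). No factor changes sign, Twist2 runs from 0.98 to 1.18 and Snai2 from -0.74 to -0.64, and open points appear for Snai1, Twist1, Zeb1 and Zeb2.

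Under all 17 alternatives, Twist2 and Snai2 passed the test. The highest adjusted p among them was 2.99e-05 for Twist2 and 0.000339 for Snai2. Without shArl4c 3, limma gave log2 fold changes of 1.11 for Twist2, -0.69 for Snai2, 0.23 for Snai1, -0.26 for Zeb2 and -0.19 for Zeb1.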

How the data were processed

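RNA of 6 mDE6 libraries was sequenced. The authors deposited 1 table of CPM values per gene and library. The submitters' processing notes name build GRCm39, Bowtie2, RSEM 1.3.0, Trimmomatic 0.38 and edgeR, without order or settings. All values (100%, tolerance 0.001 of a read) were whole multiples of the smallest of their column, so reads were recovered. The scale of each column held the TMM factor that edgeR gave on those reads. Columns named shluc were taken as shControl and those with a misspelt Arl4c hairpin name, numbered 2 to 4, as shArl4c; a column was tied to its group only. Of 22032 identifiers, 21880 matched a symbol in GENCODE M21 names.

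The 14740 genes whose mean reached 1 CPM were fitted as log2(CPM + 1) with limma 3.58.1 in R 4.3.3 (intensity trend, robust moderation, no covariate), adjusted over all genes by Benjamini and Hochberg. A count of 0 allows 3 reads, 0.202 to 0.248 CPM; this covers counting error only. Paralog ratios were tested by exact permutation. The factors and the 9 gene lists were chosen with earlier results of these data known. Named genes were the 6 factors, all bHLH partners and ID genes, Arl4c, Cdh1, Vim, Cdh2, Fn1 and, of every other list, the 3 with the smallest p among those called; any other is said to be chosen after its values were seen, or belongs to the likeness, overlap or promoter descriptions. The 3 genes most like a factor needed a mean of at least 5 CPM. Alternatives were pseudocounts of 0.5 and 5, no filter or one at 5 CPM, rescaling by TMM, median of ratios or quantiles, limma with array weights or without trend and robust moderation, each library left out, and edgeR 4.0.16 and DESeq2 1.42.0 on recovered reads. edgeR called 2565 genes higher and 2738 lower. The fits were tested on simulated counts.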

Additional observations from a re-analysis of the deposited data

How the results depend on the processing

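All log2 fold changes of the 6 factors kept their direction under the 17 alternatives, and 94 of 102 values kept their side of the threshold. Rescaling by TMM, which is among the 17, repeated the reported fit exactly. The deposited values already carried those factors, so this setting could not give another result. Exceptions were Snai1 with DESeq2 (0.21, adjusted p = 0.0933), Zeb1 (-0.16, adjusted p = 0.113) and Zeb2 (-0.21, adjusted p = 0.0647) in limma without trend and robust moderation, and leave-one-out fits. Leaving out 1 library, values ran from 0.17 to 0.26 for Snai1, from 0.016 to 0.14 for Twist1 and from -0.19 to -0.11 for Zeb1. The factors called higher were then 1 to 3, and those called lower 2 to 3. Among all tested genes, 2177 to 3488 were then called higher and 2131 to 3137 lower. DESeq2 called 1 factor higher (2000 of all genes), and limma without trend and robust moderation called 1 factor lower (2249 of all genes). The causes were not tested.

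The log2 ratio of Zeb2 to Zeb1 reversed without shArl4c 4, and its difference ran from -0.11 to 0.0065 over the leave-one-out values. Tcf12 reversed without shArl4c 4 and ran from -0.0032 to 0.040.

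Of 306 list counts, 30 moved by over 1.5 times. Without trend and robust moderation, 2 other factors that promote the transition, 4 cofactors and 6 inducing signals rose and 1 cofactor fell. With DESeq2, 2 other factors and 1 junction gene rose and 2 cofactors and 2 turnover genes fell. With array weights, 1 epithelial factor fell and 5 turnover genes rose; with quantile normalisation 2 turnover genes rose. With the filter at 5 CPM, 1 junction gene and 0 markers of other cell types rose (the filter tests fewer genes); with no filter 2 of these markers rose and 1 fell. Leaving out 1 library, the counts that rose ran from 2 to 4 for other factors, from 5 to 9 for cofactors, from 1 to 5 for turnover and from 1 to 3 for junctions, and those that fell from 0 to 1 for epithelial factors, from 2 to 4 for cofactors and from 2 to 4 for turnover.

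No paired analysis was possible because the columns carry numbers (1 to 3 and 2 to 4) that do not match the replicate numbers of the labels. No rescaling moved the median log2 fold change of all genes by over 0.1.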

Other observations

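Of the listed genes below the minimum level, 3 that were chosen after their values were seen were near the floor in shControl and higher in shArl4c. Foxa2, an endodermal factor, had 0.0522 ± 0.0454 CPM in shControl libraries against 0.947 ± 0.165 CPM in those of shArl4c. Myod1, a bHLH factor of skeletal muscle that also dimerises with E proteins, had 0.0746 ± 0.00778 and 1.19 ± 0.204 CPM, and the keratin gene Krt19 had 0.122 ± 0.0343 and 0.765 ± 0.390 CPM. With no filter on low values, limma called all 3 higher in shArl4c, with adjusted p = 2.12e-05 for Foxa2, 7.44e-06 for Myod1 and 0.00294 for Krt19. Listed genes below the minimum level went both ways. In CPM, Ehf, Cdh1, Rab25, Tek and Thy1 were lower in every shArl4c library than in any shControl library. Snai3, Cldn3, Pkp1 and Sox10 were higher without overlap. All of these but Cdh1 were named after their values were seen. These genes had few reads. For Ehf, Snai3, Cldn3 and Sox10 the nearest libraries of the groups held equal numbers of reads, and only the scaling of the libraries set them apart.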
